A study of Mus musculus with 30 samples.

Results

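The comparison described here is between mouse iPSCs that had differentiated for 48 h and iPSCs that had differentiated for 24 h, each then re-seeded as single cells in serum/LIF for 48 h without doxycycline (– dox). The line was a secondary iPSC line, in which all groups carried transgenes for the 4 factors OSKM (Oct4, Sox2, Klf4 and cMyc) that dox switches on, GFP at the Nanog locus and a constitutive nuclear RFP. Differentiation was started by taking the cells out of 2i/LIF, a medium with inhibitors of MEK and GSK3 and the cytokine LIF, and placing them in N2B27. The 2 conditions hold 4 of the 30 RNA-seq samples of the series, 2 for each time of differentiation, and are called the 24 h cells and the 48 h cells. Beside them stand 4 other kinds of sample. The first 2 are the undifferentiated cells in 2i/LIF (0 h of withdrawal) and the cells at 24 and 48 h of withdrawal before re-seeding. The next is cells differentiated for 24 or 48 h and re-seeded for 48 h with dox to induce OSKM (+ dox). The last is the cells re-seeded – dox after 0 and 96 h.

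The members of the comparison are the 12776 of 22477 genes that reached at least 1 FPKM (fragments per kilobase of transcript, scaled to the number of fragments sequenced, a level corrected for transcript length) in the 24 h or the 48 h cells. A gene is called higher or lower when the plain ratio of its 2 values was at least 2-fold. The deposited table gives 1 value per condition, in which both replicates were combined, so the differences have no replicate error and no test. They are sizes of difference between 2 pooled values.

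Naive pluripotency is the state of the inner cell mass and of mouse iPSCs in 2i/LIF. It is held by a network of transcription factors, among them Nanog, Esrrb, Tfcp2l1, the Klf factors and Tbx3, around the core factors Oct4 (gene Pou5f1) and Sox2. LIF acts through its receptor, the shared subunit gp130 and Stat3 to keep part of this network active. After withdrawal the naive factors are lost, and a formative state follows in which Otx2, Fgf5 and the de novo DNA methyltransferases are high. The comparison asks how cells given back serum and LIF differ by how long they had been without 2i/LIF.

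The 24 h and 48 h columns differed in their low values and in their sums, and the read depth is unknown. In the 24 h cells 2756 genes were listed at 0 and in the 48 h cells 4734. The 5th percentile of the low values of long transcripts, a rough guide to what few reads are worth, was 2.37 times as large in the 48 h cells. On the same scale, with the 24 h cells at 1, the cells re-seeded – dox after 0 h had a value of 0.736 and those re-seeded after 96 h a value of 2.12. For genes of low level, depth and time of differentiation therefore cannot be told apart. The FPKM values summed to 650564 in the 24 h cells and 780060 in the 48 h cells. The 123 genes that reached 1000 FPKM in either made up 40.3% of the first sum and 45.6% of the second.

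None of the 12 core pluripotency genes was listed at 0 in either condition, and 1 of the 24 naive genes was, in the 48 h cells. Pou5f1, the gene of Oct4, was at 213 FPKM in the 24 h cells and 72.6 FPKM in the 48 h cells, and Sall4, another core factor, at 94.2 and 97.1 FPKM. Since the cells are a bulk culture, fewer cells that express a gene and less RNA of it per cell cannot be told apart. Transcripts of the OSKM transgenes, whose induction needs dox, can also add to what is read as Pou5f1, Sox2, Klf4 or Myc.

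Marker genes of fibroblasts, macrophages and endothelium were checked in both conditions. The line was maintained on mouse embryonic fibroblasts, and for colony assays the study re-seeded differentiated cells on them in the same media. For the RNA-seq samples the layer is not stated separately in the sources used here. The 30 fibroblast markers summed to 96.9 FPKM in the 24 h cells and 110.6 FPKM in the 48 h cells, against 1165 FPKM in the undifferentiated cells in 2i/LIF. Col1a1, the main chain of fibroblast collagen, was at 1.54 FPKM in the 24 h cells and 4.97 FPKM in the 48 h cells, against 229 FPKM in the cells in 2i/LIF. Col3a1 was at 0.247 and 0.953 FPKM, and the fibroblast proteoglycan gene Lum at 0.0349 and 0.211 FPKM. The most abundant gene of the list was Cthrc1, at 25.9 and 16.02 FPKM. Of the 13 macrophage markers in the table, which summed to 18.1 and 20.8 FPKM, Cd68 was the most abundant and Ptprc, the common leukocyte gene, was at 0.0102 and 0 FPKM. The 20 endothelial and blood markers summed to 44.1 and 20.2 FPKM, and the vascular cadherin gene Cdh5 was at 0.133 and 0.244 FPKM.

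After re-seeding, 976 genes were higher in the 48 h cells (7.64% of the 12776) and 957 were lower (7.49%). The median log2 ratio of 48 h to 24 h was 0.01, with quartiles of -0.36 and 0.40, and 85.1% of the 12737 genes with a ratio differed by less than 2-fold. Among the 7198 genes that reached 10 FPKM, 436 were higher (6.06%) and 234 lower (3.25%). Among the 1346 genes with their higher value between 1 and 2 FPKM the order was the other way, with 175 higher and 285 lower. Among the 2314 genes that reached 50 FPKM, 162 were higher and 55 lower. When the columns were scaled to the same sum, the median log2 ratio became -0.26 and the calls became 579 higher and 1438 lower, so that genes higher in the 48 h cells made up 28.7% of the calls and not 50.5%.

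**Figure D1:**
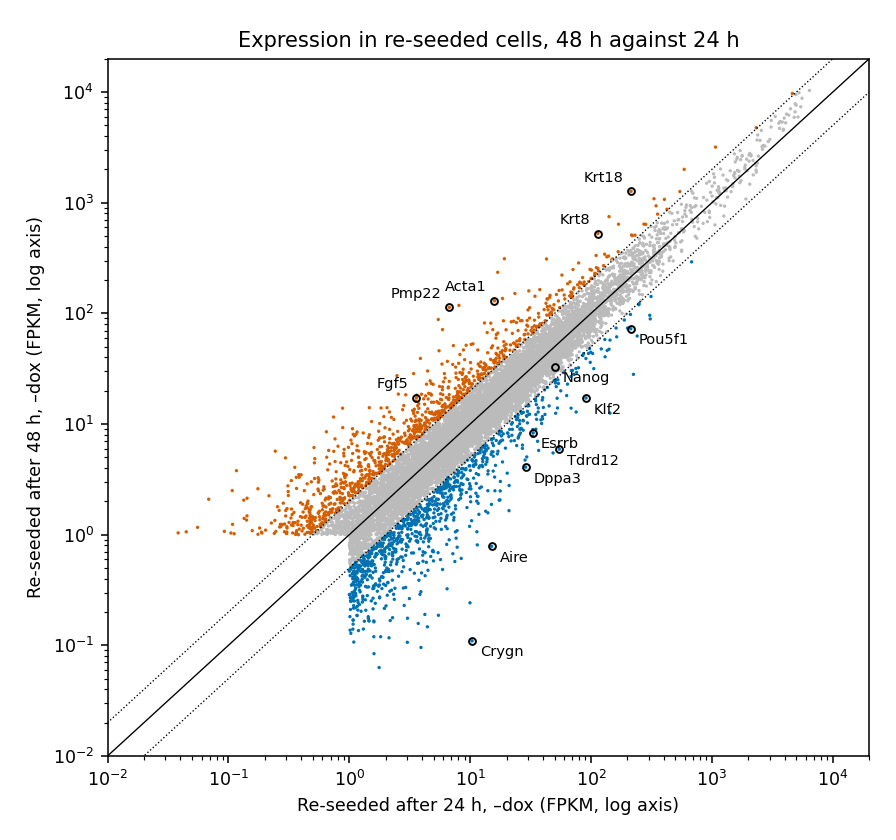
Level of each gene in cells re-seeded – dox after 24 h (x axis, FPKM, log scale) and after 48 h (y axis, FPKM, log scale). Orange points are the genes at least 2-fold higher in the 48 h cells, blue points those at least 2-fold lower, the dotted lines mark 2-fold and the solid line equality. The plot has 12736 of the 12776 genes, and most of the rest are at 0 in a column. Krt18, Acta1 and Pmp22 lie above the lines, and Klf2, Dppa3, Tdrd12 and Pou5f1 below them.

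Next to the limits, Igtp was counted as higher with 1.84 and 3.67 FPKM, and Ginm1, with 17.6 and 35.2 FPKM, was just outside. Acss2 was counted as lower with 2.70 and 1.35 FPKM, and 1810032O08Rik was just outside with 10.9 and 5.43 FPKM. At the 1 FPKM limit, Wdr78 reached 1.0008 FPKM and was kept, and Mfsd6 reached 0.9992 FPKM and was not. A ratio could not be formed for 39 genes. Of these, 10 were listed at 0 in the 24 h cells only, with Gm20538 the most abundant at 98.4 FPKM in the 48 h cells, and 29 were listed at 0 in the 48 h cells only, none above 2.61 FPKM in the 24 h cells.

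Among genes that reached 10 FPKM, the 15 largest ratios toward the 48 h cells ran from 7.62 to 16.8. Pmp22, a membrane protein of myelin and of epithelial junctions (chr11:63128982-63159547, mm10, plus strand), was at 6.73 FPKM in the 24 h cells and 113 FPKM in the 48 h cells, a ratio of 16.8. In the other re-seeded cells – dox it was at 1.43 FPKM after 0 h and 202 FPKM after 96 h. Phldb2, a protein of the cell cortex that anchors microtubules near focal adhesions, was at 5.45 and 88.1 FPKM, a ratio of 16.2. The transcription factor gene Zhx2 went from 0.741 to 11.6 FPKM and the secreted protease gene Prss23 from 0.88 to 13.9 FPKM. Prss23os, an antisense gene inside Prss23, had a ratio of 7.62, and its reads cannot be told from those of Prss23 unless strand was used.

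The small heat shock genes Cryab and Hspb2 lie next to each other on chromosome 9 and overlap. Cryab, a chaperone of intermediate filaments, was at 5.91 FPKM in the 24 h cells and 71.4 FPKM in the 48 h cells, and Hspb2 at 3.41 and 28.6 FPKM. Efemp1, a fibulin of the extracellular matrix, was at 5.53 and 45.95 FPKM, and Rdh10, which makes retinal from retinol, at 2.48 and 27.4 FPKM. The gene listed as 4-Sep, a symbol turned into a date in the table, was at 8.07 and 118 FPKM. Hist1h2bg and Hist1h2ab, 2 of the near-identical replication histone genes, had ratios of 16.2 and 13.9, and reads can be shared with their copies. They were at 19.2 and 312 FPKM and at 16.9 and 235 FPKM. For both, the value in the 24 h cells was the lowest of all conditions. After 0 h the cells re-seeded – dox had 169 and 87.6 FPKM of them, and after 96 h 218 and 161 FPKM. The noncoding gene Gm29247 was also among the 15, at 1.47 and 14.1 FPKM.

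Tdrd12 was among the 15 genes with the largest ratios toward the 24 h cells. The gene, which acts in the piRNA pathway that silences transposons, was at 54.7 FPKM in the 24 h cells and 5.93 FPKM in the 48 h cells (chr7:35469098-35537745, mm10, minus strand). Morc1, also needed to silence transposons in male germ cells, was at 15.02 and 1.88 FPKM, and Fkbp6, a chaperone partner of piRNA proteins, at 13.5 and 1.63 FPKM. Rpl39l, a ribosomal protein gene with a testis form, was at 48.5 and 5.48 FPKM. These 4 genes were at 71.9, 81.2, 40.4 and 93.5 FPKM after 0 h and at 0.492, 0.457, 1.002 and 3.09 FPKM after 96 h in the cells re-seeded – dox.

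Aire, known as the regulator of self-antigen expression in the thymus, was at 15.1 FPKM in the 24 h cells and 0.785 FPKM in the 48 h cells. It overlaps Dnmt3l, which lies on the other strand and was also lower. Reads in the overlap cannot be told apart unless strand was used. The gene listed as 1-Sep was at 20.98 and 1.65 FPKM. Pecam1, an adhesion molecule of naive cells and of endothelium, was at 17.4 and 2.05 FPKM. The zinc finger gene Zfp600, the oxidase gene Pipox, the podocyte gene Nphs1 and Cpsf4l had between 11.4 and 17.7 FPKM in the 24 h cells and between 0.808 and 2.07 FPKM in the 48 h cells. Crygn, a crystallin gene, had the largest ratio among genes that reached 10 FPKM and were above 0 in both columns, 94.6, from 10.4 to 0.11 FPKM. In the cells re-seeded + dox it was at 4.83 and 15.7 FPKM. Its value in the 48 h cells stood apart as the lowest of all conditions. After 0 and 96 h it was at 6.61 and 6.56 FPKM in the cells re-seeded – dox, and at 48 h of withdrawal at 4.77 FPKM. Gm26870 (144 and 12.6 FPKM) and Gm10800 (225 and 28.1 FPKM) are predicted genes that share sequence with repeats, so that their values are uncertain.

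By the difference in FPKM among 2-fold genes, the largest excess in the 48 h cells was in the ribosomal protein genes Rps28 and Rps2. Rps28 was at 4633 and 9720.3 FPKM. Bex1 and Ngfrap1, a pair of related X-linked genes, were at 590.1 and 2006 FPKM and 405 and 1073 FPKM. Myl6, a light chain of non-muscle myosin, was at 544 and 1263 FPKM, and the noncoding gene Yam1 at 1072 and 3184 FPKM. Among 2-fold genes, the largest excess in the 24 h cells was in Ldha, which makes lactate from pyruvate, at 679.9 and 292 FPKM. Rhox5, an X-linked homeobox gene of germ cells and early embryos, was at 309 and 89.2 FPKM, and Mkrn1, a ubiquitin ligase gene, at 314 and 142 FPKM.

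Of the 12 core pluripotency genes, 5 were lower in the 48 h cells and none was higher, with a median log2 ratio of -0.64 against 0.01 for all genes. For the counts of this and the later lists, the shares among all genes were 7.64% higher and 7.49% lower. Pou5f1 was 2.94-fold lower. Before re-seeding it had been at 279 and 205 FPKM at 24 and 48 h of withdrawal, and in the cells re-seeded + dox it was at 262 and 204 FPKM. Sox2, its DNA-binding partner, was at 103 FPKM in the 24 h cells and 43.4 FPKM in the 48 h cells. Zfp42, a zinc finger gene known as Rex1 that marks naive cells, was at 62.9 and 18.1 FPKM, and Dppa2, a chromatin regulator of pluripotent cells, at 39.1 and 10.1 FPKM. Dppa4, the partner of Dppa2, was less than 2-fold different at 96.9 and 70.2 FPKM. Sall4, Trim28, Lin28a and Zfp281 had log2 ratios between -0.24 and 0.24.

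All 23 naive pluripotency genes that reached 1 FPKM had a ratio below 1, and 14 of them were lower, with a median log2 ratio of -1.44. Klf2, a factor that sustains the naive network downstream of MEK inhibition, was at 90.9 FPKM in the 24 h cells and 17.2 FPKM in the 48 h cells. Esrrb, a nuclear receptor that shares targets with Oct4 and Nanog, was at 33.2 FPKM in the 24 h cells and 8.31 FPKM in the 48 h cells. Dppa3, a maternal factor that protects DNA from active demethylation, was at 28.8 FPKM in the 24 h cells and 4.08 FPKM in the 48 h cells. Prdm14, which represses the methyltransferase genes in naive cells, was at 1.45 and 0.167 FPKM. The nuclear receptor genes Nr0b1 and Nr5a2 were at 8.37 and 2.29 FPKM and at 3.84 and 1.05 FPKM, and Tcl1, a coactivator of Akt, at 4.72 and 0.636 FPKM.

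Several naive factors were less than 2-fold apart. Nanog was at 50.1 FPKM in the 24 h cells and 32.9 FPKM in the 48 h cells, a log2 ratio of -0.61. Tfcp2l1, a target of LIF, was at 7.87 and 7.84 FPKM, and Klf5, a further Klf factor of the network, at 61.8 and 55.1 FPKM. Tbx3 was at 8.49 and 4.33 FPKM and Dppa5a, the most abundant gene of the list, at 1913 and 1081 FPKM. Klf4, a target of Stat3, was at 10.4 and 4.68 FPKM and was counted as lower.

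The naive genes were also compared before re-seeding. At 48 h against 24 h of withdrawal, 19 of 24 naive genes were lower, with a median log2 ratio of -1.87. Of the 14 genes lower after re-seeding 12 were among them, while 20.9% of all 957 lower genes had been lower before. Nanog had been at 46.5 and 6.45 FPKM before re-seeding, and its log2 ratio was -2.85 then and -0.61 after. For Tfcp2l1 the log2 ratio was -2.10 before and -0.01 after, and for Klf5 -1.24 and -0.17. Esrrb gave -1.82 before and -2.00 after, and Klf2 -2.33 and -2.40. For Dppa3 the larger difference was the later one, with a log2 ratio of -0.26 before and -2.82 after re-seeding. The differences between these ratios were not tested.

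**Figure D2:**
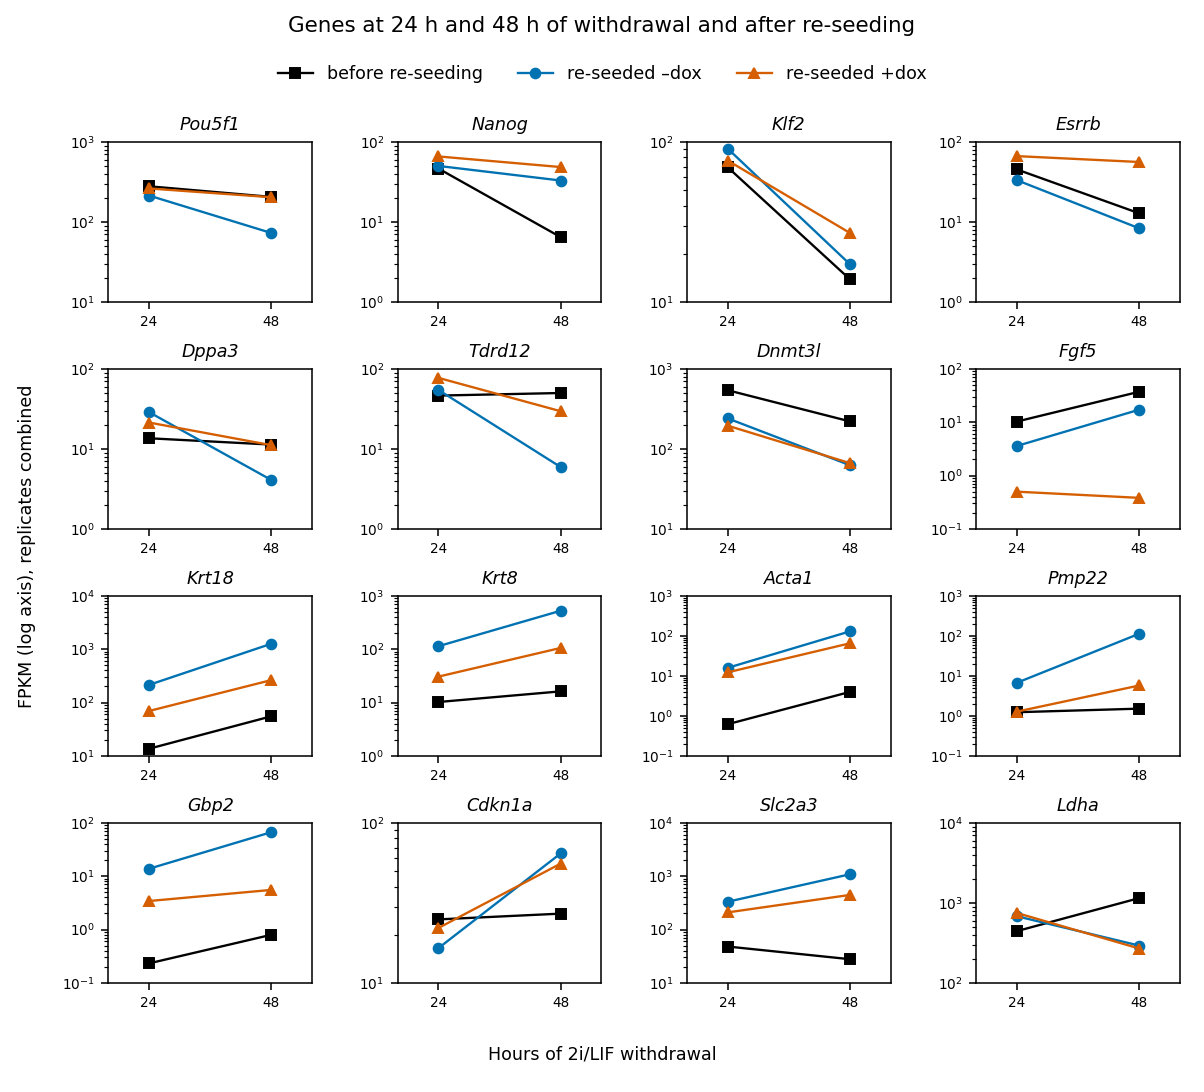
Level of 16 genes (y axis, FPKM, log scale, range differs by gene) at 24 h and 48 h of 2i/LIF withdrawal (x axis): before re-seeding (black squares), re-seeded – dox (blue circles) and re-seeded + dox (orange triangles), 1 pooled value per point with no error bar. Nanog is lower at 48 h by a factor of 7.21 before re-seeding and of 1.52 after re-seeding – dox, while Krt18 and Acta1 are higher at 48 h in all 3 pairs.

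The formative genes were mixed, with 2 higher and 6 lower of 19, against 7.64% higher and 7.49% lower among all genes. Their median log2 ratio was -0.45. Fgf5, the classical ligand of the post-implantation epiblast, was at 3.59 FPKM in the 24 h cells and 17.2 FPKM in the 48 h cells, while in the cells re-seeded + dox it was at 0.498 and 0.381 FPKM. Sox4 was the other higher gene, at 13.1 and 31.8 FPKM. Lef1, a transcription factor of the Wnt pathway, was at 5.73 and 1.41 FPKM, Foxd3 at 8.06 and 2.07 FPKM and Tcf15 at 33.02 and 8.93 FPKM. Otx2, which redirects Oct4 in the formative state, was at 17.9 and 13.1 FPKM, and Pou3f1 at 26.8 and 23.9 FPKM. Before re-seeding 7 of the 19 formative genes had been higher and 3 lower at 48 h than at 24 h.

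The DNA methylation genes held 3 lower genes and none higher among 17, against 7.49% lower and 7.64% higher among all genes. Dnmt3l, the cofactor of the de novo enzymes, was at 241 FPKM in the 24 h cells and 62.5 FPKM in the 48 h cells, and Dnmt3a at 74.96 and 31.8 FPKM. Dnmt3b was at 195 and 98.5 FPKM, just within 2-fold. Before re-seeding Dnmt3a had been at 179.7 and 292 FPKM and Dnmt3b at 259.5 and 586 FPKM, with the larger values at 48 h. Tet1, which oxidizes methylcytosine, was at 24.6 and 9.51 FPKM, and in the cells re-seeded + dox at 38.8 and 47.6 FPKM. The maintenance genes Dnmt1 and Uhrf1 had log2 ratios of -0.40 and -0.45.

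Germ cell and 2-cell genes were nearly all at lower values in the 48 h cells. Of 18 that reached 1 FPKM, 12 were lower and none was higher, and the median log2 ratio was -1.38. The share lower was 7.49% among all genes. It was 21.2% among genes with their higher value between 1 and 2 FPKM and 13% between 2 and 5 FPKM. Several of the genes named here lie at such low levels. Hormad1, a protein of the meiotic chromosome axis, was at 7.19 FPKM in the 24 h cells and 0.673 FPKM in the 48 h cells, Stra8, the gatekeeper of meiosis, at 4.22 and 0.19 FPKM, and the factor gene Sohlh2 at 4.11 and 0.861 FPKM. Mael, of the piRNA pathway, was at 19.6 and 6.06 FPKM, and Prdm1, which specifies germ cells, at 6.99 and 2.16 FPKM. The 2-cell embryo genes Zscan4d and Zscan4f were at 1.17 and 0.226 FPKM and at 1.44 and 0 FPKM. Ddx4 and Sycp3, at 10.2 and 6.88 FPKM and 17.9 and 12.5 FPKM, were less than 2-fold apart. Of the 12 lower genes, 4 had also been lower at 48 h of withdrawal and 4 were lower + dox. For all 957 lower genes these shares were 20.9% and 41.2%.

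Signalling genes were compared by pathway. Of 11 genes of the LIF pathway 1 was higher and none lower, near the shares of 7.64% higher and 7.49% lower among all genes. Lifr, the LIF receptor, was at 3.23 and 1.98 FPKM and Il6st, the gp130 subunit, at 10.6 and 11.7 FPKM. Stat3 was at 21.005 and 19.9 FPKM, its feedback inhibitor Socs3 at 26.4 and 21.3 FPKM and the target kinase Pim1 at 188 and 207 FPKM. Before re-seeding Socs3 had been at 19.6 and 6.07 FPKM. The kinase gene Jak2 was the higher gene, at 2.01 and 4.69 FPKM.

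In the Nodal pathway, Lefty1, a secreted inhibitor of Nodal, was at 306 FPKM in the 24 h cells and 96.2 FPKM in the 48 h cells, against 9.4 and 9.56 FPKM before re-seeding. Lefty2, its neighbour in function, was at 50.3 and 82.1 FPKM and the ligand Nodal at 37.6 and 61.5 FPKM, both less than 2-fold higher. The co-receptor gene Tdgf1 was at 258 and 130.1 FPKM, just within 2-fold. Gdf1 was the other lower gene of the 17, at 5.93 and 1.74 FPKM. The share lower among all genes was 7.49%.

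In the FGF and ERK pathway 2 genes were higher and 5 lower of 20, against 7.64% higher and 7.49% lower among all genes. Among ligands, Fgf4, a target of Oct4 and Sox2, was at 26.5 and 9.14 FPKM, Fgf15 at 4.34 and 0.563 FPKM and Fgf8, a ligand of the primitive streak, at 3.15 and 8.99 FPKM. The receptors Fgfr1 and Fgfr2 had log2 ratios of 0.45 and 0.36. Among targets, Etv4 was at 29.8 and 10.2 FPKM and the feedback inhibitor Spry4 at 17.7 and 6.95 FPKM, while Dusp6, another feedback inhibitor, was at 56.4 and 46.9 FPKM.

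Of 14 Wnt targets and Tcf factors, 7 were higher and 1, Lef1, was lower, with a median log2 ratio of 0.93. T, the brachyury factor of the primitive streak, was at 0.907 FPKM in the 24 h cells and 5.9 FPKM in the 48 h cells, against 0.0814 and 0.0653 FPKM before re-seeding and 0.0472 and 0.39 FPKM + dox. Sp5, a direct Wnt target, was at 1.16 FPKM in the 24 h cells and 8.48 FPKM in the 48 h cells, and Axin2, a feedback inhibitor of the pathway, at 2.15 and 6.75 FPKM. Wnt3, the ligand that starts the streak, was at 0.922 and 3.28 FPKM, Dkk1, a secreted inhibitor, at 0.794 and 2.08 FPKM and Tcf7l2 at 5.9 and 20.4 FPKM. In the cells re-seeded + dox 2 of the 7 were higher and Axin2 was lower, at 1.55 and 0.683 FPKM. For all 976 higher genes 38.1% were higher + dox and 1.95% lower. In the 24 h cells T, Dkk1 and Wnt3 were under 1 FPKM, where the columns differed in their low values.

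The BMP list had 3 higher genes and 1 lower of 16, against 7.64% higher and 7.49% lower among all genes. Bmp4, a ligand, was at 1.21 and 4.48 FPKM, Bmp7 at 1.82 and 4.31 FPKM and the inhibitor Nog at 0.297 and 4.95 FPKM. The targets Id1, Id2 and Id3 were at 89.7 and 51.1 FPKM, 65.6 and 104 FPKM and 48.9 and 30.6 FPKM. In the TGFβ list 5 of 15 were higher and none lower. The ligands Tgfb2 and Tgfb3 were at 0.364 and 3.3 FPKM and 0.349 and 1.59 FPKM, the receptor Tgfbr2 at 0.306 and 1.72 FPKM and Thbs1, a matrix protein that activates TGFβ, at 18.9 and 85.7 FPKM. Nog, Tgfb2, Tgfb3 and Tgfbr2 were under 1 FPKM in the 24 h cells, where the columns differed in their low values.

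Genes of the germ layers were mostly low. Of 7 mesendoderm genes that reached 1 FPKM 3 were higher, namely T, Wnt3 and Fgf8. Eomes was at 1.78 and 2.46 FPKM, Sox17, an endoderm factor, at 0.897 and 1.19 FPKM and Gata4 at 1.46 and 0.931 FPKM. Of 10 neurectoderm genes 4 were lower and none higher. Pax6 and Sox1, factors of the neural plate, were at 1.82 and 0.12 FPKM and at 1.37 and 0.207 FPKM, and Tubb3, a neuronal tubulin, at 20.5 and 8.24 FPKM. Nes was at 18.01 and 22.2 FPKM, and Sox11 at 6.65 and 12.999 FPKM. Among 16 extraembryonic endoderm genes 7 were higher and 1 lower. Cited1 was at 10.6 and 53.1 FPKM, the endocytic genes Lrp2 and Dab2 at 16.7 and 42.3 FPKM and 10.2 and 21.8 FPKM, and Apoe, the most abundant, at 1093 and 1108 FPKM.

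Trophoblast genes split, with 4 higher and 4 lower of 13. The 4 higher genes were Krt8, Krt18 and Krt19, which simple epithelia also express, and Bmp4. The 4 lower genes were Plac1, Esx1, Ascl2 and Tfap2c, which are known for their roles in placental cells. Plac1 was at 6.38 FPKM in the 24 h cells and 1.41 FPKM in the 48 h cells, Esx1 at 10.03 and 2.75 FPKM, Ascl2 at 8.57 and 2.54 FPKM and Tfap2c at 23.6 and 11.7 FPKM. After 96 h, the cells re-seeded – dox had 103, 38.9, 40.0001 and 82.5 FPKM of them, so that the values at 48 h were the lowest of the 24, 48 and 96 h cells for all 4.

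Epithelial genes were on the higher side, with 10 higher and 1 lower of 28 and a median log2 ratio of 0.82. Krt18 and Krt8, the keratin pair of simple epithelia, were at 215 FPKM in the 24 h cells and 1268 FPKM in the 48 h cells, and at 114 and 527 FPKM. Dsp, which ties keratin filaments to desmosomes, was at 4.45 and 30.2 FPKM. The claudins Cldn3, Cldn6 and Cldn7 of tight junctions were at 26.9 and 85.99 FPKM, 114 and 255 FPKM and 80.5 and 192 FPKM. The adhesion genes Cdh1 and Epcam were less than 2-fold apart, at 134 and 167 FPKM and 175 and 181 FPKM. Of the 10 higher genes, 5 had been higher before re-seeding and 9 were higher + dox. For all 976 higher genes these shares were 14.4% and 38.1%.

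The list of keratins and surface ectoderm had the largest median of the lists with 7 or more genes, 1.93 on the log2 scale, with 10 higher and 1 lower of 16. Dsc2, a desmosomal cadherin, was at 2.76 and 13.5 FPKM and Krt19 at 26.1 and 85.9 FPKM. The membrane-binding genes Anxa3 and Anxa1 were at 23.5 and 151 FPKM and 8.23 and 42.5 FPKM, and Perp, a p53 target of desmosomes, at 15.4 and 71.3 FPKM. Krt17 was the lower gene, at 6.47 and 1.5 FPKM. Before re-seeding the list had a median log2 ratio of -0.00, with 2 higher and 5 lower of 15. With dox it had 12 higher and none lower of 17. Krt18 itself was at 13.6 and 55.2 FPKM before re-seeding and 69.4 and 264 FPKM + dox.

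Genes of the contractile cytoskeleton and of the factors SRF and YAP held 10 higher and none lower of 27, with a median log2 ratio of 0.69. Acta1, skeletal α-actin (chr8:123891769-123894751, mm10, minus strand), was at 15.9 FPKM in the 24 h cells and 129.9 FPKM in the 48 h cells, against 0.617 and 3.97 FPKM before re-seeding. Acta2, smooth muscle α-actin, was at 18.5 and 136 FPKM, and Actc1, cardiac α-actin, at 2.56 and 7.45 FPKM. The tropomyosin genes Tpm1 and Tpm2 were at 345 and 938 FPKM and 71.8 and 166 FPKM. The YAP targets Ctgf and Cyr61 were less than 2-fold apart, at 40.9 and 53.6 FPKM and 90.2 and 116 FPKM. Of the 10 higher genes, 4 had been higher before re-seeding and 8 were higher + dox, against 14.4% and 38.1% of all 976 higher genes. Acta1 was at 0.782 FPKM in cells re-seeded after 0 h and 132 FPKM in those re-seeded after 96 h.

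The promoters of Acta1 and Actc1 are shown because these were the higher genes of the list with a CArG box, the binding motif of SRF, in the 250 bases before the start. The sequences are the last 150 bases before the start, from RefSeq on GRCm38.p6 (mm10), on the strand of the gene, with the CArG box in capitals. They lie at chr8:123894776-123894925 and chr2:114052876-114053025, both on the minus strand. The starts are those of RefSeq, and for Acta1 it lies upstream of the Gencode M21 start that the gene coordinates give.
Acta1: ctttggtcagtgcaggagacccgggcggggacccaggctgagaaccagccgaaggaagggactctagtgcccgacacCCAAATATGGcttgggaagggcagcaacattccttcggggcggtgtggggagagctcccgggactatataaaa
Actc1: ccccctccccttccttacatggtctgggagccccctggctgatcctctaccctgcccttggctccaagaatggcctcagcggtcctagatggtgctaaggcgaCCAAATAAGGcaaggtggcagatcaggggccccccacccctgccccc
The box stood 73 to 64 bases before the RefSeq start of Acta1 and 47 to 38 before that of Actc1. Both strands were searched. Of the 10 higher genes 2 held the box (20%), and of the 23 genes of the list with a known promoter 6 did (26.1%), the others being Cnn2, Myl9, Srf and Vcl. Among the 9408 tested genes with a known promoter 1.36% held it, and among all 27025 promoters 1.62%. A match is a run of letters and not a measured site.

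Matrix and mesenchymal genes also held more higher than lower members. Of 19 genes of the basement membrane and matrix, 8 were higher and 1 lower. Col4a1 and Col4a2, the paired chains of basement membrane collagen, were at 9.76 and 24.4 FPKM and 6.59 and 21.2 FPKM, and the laminin chain Lama5 at 69.3 and 150.02 FPKM. Among 10 integrins Itgav and Itgb8 were higher and Itgb7 lower, against 7.64% higher and 7.49% lower among all genes. Itgav was at 8.92 and 23.5 FPKM, and the main β chain Itgb1 at 74.9 and 115 FPKM. Of 21 mesenchymal genes 9 were higher and 1 lower. S100a6, a calcium-binding protein, was at 42.8 FPKM in the 24 h cells and 311 FPKM in the 48 h cells, Sparc, a matrix protein that binds collagen, at 127 and 270.1 FPKM, and Lgals1, a galectin, at 231 and 509 FPKM. Vim, the intermediate filament of mesenchymal cells, was at 60.7 and 135 FPKM – dox and 56.8 and 25.5 FPKM + dox. Spp1, osteopontin, was the lower gene, at 105 and 31.7 FPKM.

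Fibroblast markers were part higher as well. Of the 18 fibroblast markers that reached 1 FPKM, 9 were higher and 1 lower. Col5a2 was at 1.3 and 8.3 FPKM, Col1a2 at 1.23 and 4.32 FPKM and Bgn at 5.31 and 15.9 FPKM, while Cthrc1, Fbln1 and Serpinf1, the most abundant of the list in the 24 h cells, had log2 ratios of -0.69, -0.43 and -0.23. The median log2 ratio of the list was 0.93, but -0.23 with a minimum of 5 FPKM and -0.13 after scaling to the same sum. The part of fibroblasts in the matrix and mesenchymal values was not tested. Before re-seeding 12 of 23 mesenchymal genes had been lower at 48 h than at 24 h, and none had been higher. Of the 9 genes higher after re-seeding 5 were among the lower ones, while 9.53% of all 976 higher genes had been lower before.

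Interferon and antigen presentation genes had 10 higher and 3 lower members of 27, with a median log2 ratio of 0.68. Gbp2, an interferon-induced GTPase that acts against intracellular pathogens (chr3:142620602-142638008, mm10, plus strand), was at 13.8 FPKM in the 24 h cells and 67.1 FPKM in the 48 h cells, against 0.232 and 0.796 FPKM before re-seeding and 3.43 and 5.54 FPKM + dox. B2m, the light chain of MHC class I, was at 66.99 and 193 FPKM, and the heavy chain H2-D1 at 13.2 and 32.7 FPKM. The immunoproteasome gene Psmb9 was at 5.29 and 12.6 FPKM, Ddx58, the RNA sensor RIG-I, at 11.9 and 33.6 FPKM and the ubiquitin-like Isg15 at 1.71 and 5.9 FPKM. The pathway factors Stat2 and Irf9 had log2 ratios of -0.15 and 0.02. The 3 lower genes were Zbp1, Oas2 and Xaf1. With dox 3 of the 10 higher genes were higher, near the share of 38.1% for all 976 higher genes.

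The promoters of Gbp2 and B2m are shown because they were the most abundant of the higher genes with a match to the interferon-stimulated response element (ISRE), searched as GAAANNGAAA on both strands. The 150 bases before the start are again from RefSeq on GRCm38.p6, at chr3:142620513-142620662 and chr2:122147537-122147686, both on the plus strand, with the match in capitals. For Gbp2 the RefSeq start lies inside the Gencode gene printed with it, and so does the match.
Gbp2: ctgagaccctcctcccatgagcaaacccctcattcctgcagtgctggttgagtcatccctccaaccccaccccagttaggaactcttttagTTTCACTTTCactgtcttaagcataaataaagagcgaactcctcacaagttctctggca
B2m: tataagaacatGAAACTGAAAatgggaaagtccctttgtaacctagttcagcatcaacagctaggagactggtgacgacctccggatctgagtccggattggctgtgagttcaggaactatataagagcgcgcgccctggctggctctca
In Gbp2 the match lay on the opposite strand, 59 to 50 bases before the RefSeq start, and in B2m on the strand of the gene, 139 to 130 before it. Of the 9 higher interferon genes with a known promoter 5 held the motif (55.6%), the others being Gbp3, Gbp7 and Isg15, and of the 22 genes of the list 8 did (36.4%). Among all tested genes 2.86% held it, among the genes higher in the 48 h cells 4.51%, among the lower 2.73% and among all 27025 promoters 3.46%. A motif of AP-1, TGANTCA, was in 8.42% of the higher genes, 6.1% of the lower and 5.07% of all tested genes, and in 7.82% of all 27025 promoters.

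Chemokine and inflammatory genes had 6 higher and 1 lower of 14, against 7.64% higher and 7.49% lower among all genes. Cxcl10, a chemokine induced by interferon, was at 3.46 and 13.6 FPKM, the macrophage growth factor Csf1 at 2.93 and 18.4 FPKM and Cxcl16 at 9.05 and 21.8 FPKM. Cxcl12 was the lower gene, at 3.39 and 1.58 FPKM. Il18 was listed at 0 in the 24 h cells and at 1.4 FPKM in the 48 h cells.

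Of 23 p53 targets 4 were higher and 1 lower, against 7.64% higher and 7.49% lower among all genes. The median log2 ratio of the list was 0.68. Cdkn1a, the inhibitor p21 of cyclin-dependent kinases, was at 16.5 FPKM in the 24 h cells and 64.4 FPKM in the 48 h cells, against 24.9 and 27.1 FPKM before re-seeding and 22.03 and 55.7 FPKM + dox. Plk2 was at 8.8 and 46.8 FPKM and Phlda3, an inhibitor of Akt, at 37.3 and 75.9 FPKM. Mdm2 and Ccng1 were less than 2-fold higher, at 52.8 and 91.8 FPKM and 60.99 and 113 FPKM, and Bax, which permeabilizes mitochondria, was at 189 and 177 FPKM. Trp53 itself was at 160.2 and 109.6 FPKM.

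Of 25 cell cycle genes 3 were higher and 1 lower, against 7.64% higher and 7.49% lower among all genes. Their median log2 ratio was -0.07. The proliferation markers Mki67 and Top2a were at 37.8 and 45.7 FPKM and 222 and 245 FPKM. Besides Cdkn1a, the higher genes were Rb1, at 8.07 and 22.2 FPKM, and the inhibitor Cdkn2b, at 1.77 and 4.54 FPKM. Cdkn1c, an imprinted inhibitor, was lower at 17.3 and 6.69 FPKM, and the cyclin Ccne1 was at 116 and 57.99 FPKM, just within 2-fold. Among 18 immediate-early genes Ier3, Fosl2 and Fos were higher and Egr1 was lower. Ier3 was at 14.8 and 81.6 FPKM and Egr1 at 25.8 and 8.98 FPKM. Myc, an OSKM factor, was at 44.3 and 35.9 FPKM.

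Glycolysis and hypoxia genes were compared next. Slc2a3, the high-affinity glucose transporter, was at 332 FPKM in the 24 h cells and 1088 FPKM in the 48 h cells, and Vegfa, a hypoxia target, at 36.9 and 92.7 FPKM. Ldha, Pdk1, which restrains entry of pyruvate into the mitochondrion, and Bnip3 were lower, the last 2 at 63.9 and 22.96 FPKM and 56.2 and 19.98 FPKM. Of the 27 glycolysis and hypoxia genes 3 were higher and 4 lower, against 7.64% higher and 7.49% lower among all genes. The median log2 ratio of the list was -0.37. The enzymes Pkm and Eno1 were less than 2-fold lower, at 1062 and 630.1 FPKM and 750.5 and 479 FPKM. Ldha had been at 444 and 1147 FPKM before re-seeding, and 3 of the 4 lower genes had then been higher at 48 h. For all 957 lower genes this share was 14%.

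Genes of cholesterol synthesis held 4 lower and none higher of 24, against 7.49% lower and 7.64% higher among all genes. Among the lower genes were Mvd, Dhcr7 and Insig1, of which Insig1, which retains the sterol sensor, was at 29.3 and 11.9 FPKM. Of the 29 Polycomb genes 3 were lower and none higher, near the share of 7.49% that was lower among all genes. Phc1, a PRC1 subunit of pluripotent cells, was at 249.7 and 123 FPKM, Cbx7 at 97.2 and 48.1 FPKM and Phf19 at 3.62 and 1.34 FPKM, the first 2 close to the 2-fold limit, while Ezh2, the methyltransferase, was at 69.9 and 53.8 FPKM.

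Retinoid genes had 6 higher and 2 lower of 15, but a median log2 ratio of -0.34, with 9 of the 15 ratios below 1. The enzyme genes Rdh10 and Dhrs3 were higher, Dhrs3 at 3.23 and 11.1 FPKM, and the carrier Crabp2 was lower, at 16.5 and 7.1 FPKM. Cyp26a1, which breaks down retinoic acid and is induced by it, was at 0.625 and 1.27 FPKM. Among carbonic anhydrases Car4, on the cell surface, was at 169 FPKM in the 24 h cells and 639.8 FPKM in the 48 h cells, and Car2 at 77.5 and 182 FPKM. Imprinted genes were split, with 4 higher and 4 lower of 25, against 7.64% higher and 7.49% lower among all genes. Nnat, Airn, Plagl1 and Peg3 were higher, and Dlk1, Phlda2, Ascl2 and Cdkn1c lower. Nnat was at 34.4 and 143 FPKM, Peg3 at 87.8 and 192 FPKM and Phlda2 at 131 and 40.5 FPKM, and the noncoding RNA H19 was at 1256 and 759 FPKM.

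Markers of other lineages were also counted, against 7.64% higher and 7.49% lower among all genes. Of 7 endothelial and blood genes 5 were lower, among them Pecam1 and Etv2, and Flt1 was higher at 1.47 and 8.005 FPKM. Of 9 muscle genes 5 were lower and 2 higher, the troponin gene Tnnc1 being the most abundant of the higher at 2.23 and 11.5 FPKM. Tnnt1, another troponin gene and the most abundant of the muscle list, was lower at 29.4 and 11.8 FPKM. Among 12 neuronal and glial genes 3 were higher and 3 lower, and Stmn2, a tubulin-binding protein of neurons and the most abundant of them, was at 57.4 and 75.8 FPKM. The 16 neuronal and glial markers in the table summed to 139.9 and 187 FPKM. Of the 2 macrophage genes that reached 1 FPKM, Aif1 was higher at 0.332 and 3.09 FPKM.

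Genes present in every cell differed by less than 2-fold with few exceptions. Of the 30 listed ribosomal protein genes Rps2 was higher, with a median log2 ratio of 0.28. Rps28, which is not in the list, was also higher, with a ratio of 2.10. Of 29 genes of oxidative phosphorylation Ndufb8 was higher, with a median of 0.40. Of 15 housekeeping genes B2m was higher, with a median of 0.19, which became -0.07 after scaling to the same sum. Gapdh was at 1871 and 2079.5 FPKM and Hprt at 105 and 121 FPKM.

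The ratio differed with transcript length. Among genes that reached 10 FPKM the median log2 ratio was 0.30 for the 243 with transcripts under 500 bases, 0.00 for the 1590 between 2000 and 5000 bases and 0.27 for the 118 of 5000 bases or more. The 45 replication histone genes that reached 10 FPKM, whose transcripts are short and mostly lack a poly(A) tail, summed to 5034 FPKM in the 24 h cells and 7651 FPKM in the 48 h cells. Of these 19 were higher and none lower. The same genes had 31 higher + dox and 3 higher before re-seeding. The part of library preparation in the values of short and histone transcripts was not tested.

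**Figure D3:**
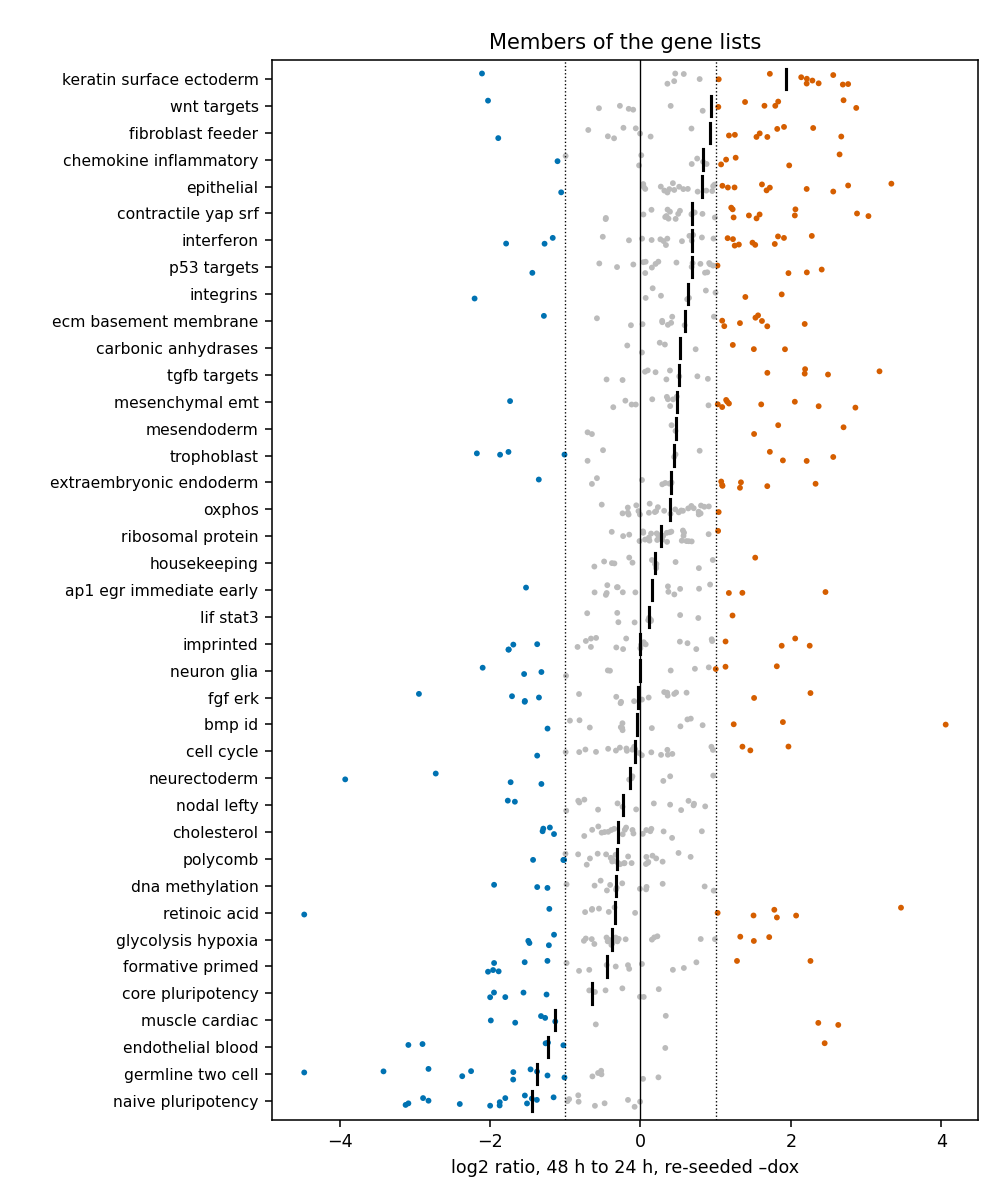
Log2 ratio of 48 h to 24 h cells re-seeded – dox (x axis) for the members of each list with 7 or more genes that reached 1 FPKM (1 row a list, ordered by median). Each point is a gene, orange at 2-fold higher or more and blue at 2-fold lower or more, the black bar is the median and the dotted lines mark 2-fold. Genes at 0 in a column have no point. Naive pluripotency stands at the bottom with a median of -1.44 and keratins at the top with 1.93.

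The difference between 48 h and 24 h before re-seeding was set beside that after re-seeding, to see how much of it was still there after 48 h in serum/LIF. At 48 h against 24 h of withdrawal 1089 genes were higher (8.59% of 12675) and 1041 lower (8.21%). Of the 1089, 141 were also higher after re-seeding (12.9%) and 134 were lower (12.3%). Of the 1041, 200 were also lower (19.2%) and 93 were higher (8.93%). Over all genes tested before re-seeding, 5.59% were higher and 6.64% lower after it. Seen from the genes called after re-seeding, 14.4% of the 976 higher and 20.9% of the 957 lower had been called in the same direction before, against 7.51% called higher and 5.54% called lower before among all 12776 genes.

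Among the genes that were higher at 48 h after re-seeding but lower before it, the most abundant were S100a6, Sparc, Anxa2, Anxa3, Vim and Cryab. S100a6 was at 140.4 and 37.9 FPKM at 24 and 48 h of withdrawal, and at 42.8 and 311 FPKM after re-seeding. Anxa3 was at 7.42 and 2.54 FPKM before and 23.5 and 151 FPKM after. In the other direction the most abundant were Ldha, Gm10800, Gm26870, Phlda2, Pim2 and Bnip3. Phlda2, an imprinted gene that limits placental growth, was at 10.3 and 27.4 FPKM before and 131 and 40.5 FPKM after. Anxa2 and Pim2 were named by their abundance in these groups, after their values were seen.

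**Figure D4:**
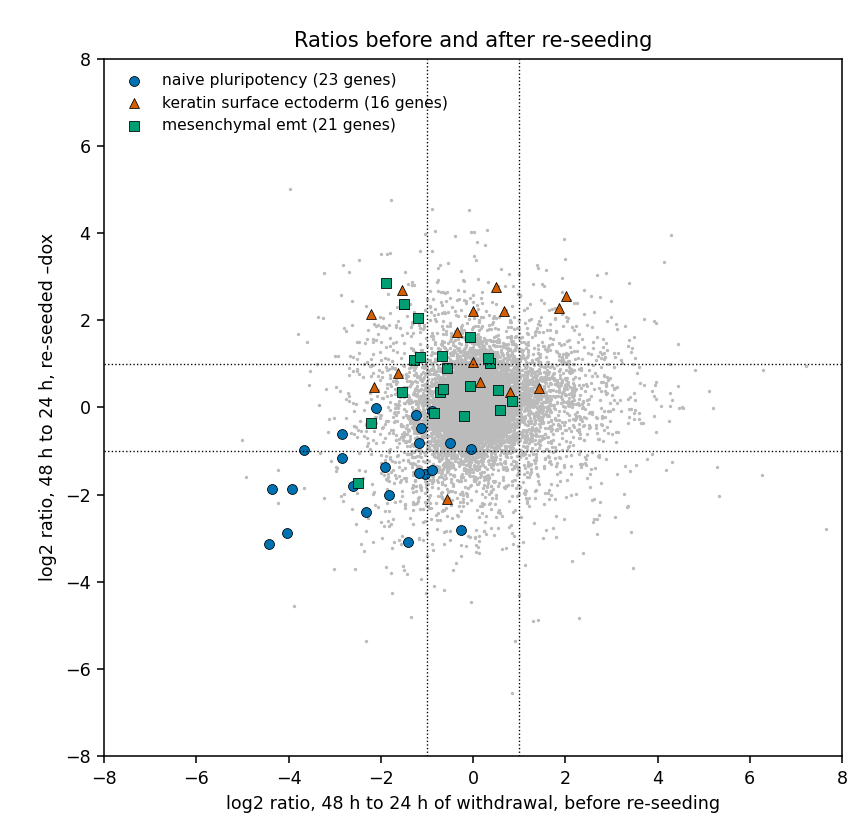
Log2 ratio of 48 h to 24 h before re-seeding (x axis) and after re-seeding – dox (y axis) for 12658 genes (grey), with the naive pluripotency, keratin and mesenchymal lists marked. The dotted lines mark 2-fold, and 118 genes beyond a log2 ratio of 8 or without a ratio are not drawn. The naive genes lie at or below 0 on both axes, and the keratin genes lie mostly above 0 on the y axis on both sides of 0 on the x axis.

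With OSKM induced, the 2 times of differentiation shared genes with the comparison – dox. In the cells re-seeded + dox 821 genes were higher at 48 h than at 24 h (6.47% of 12696) and 850 lower (6.7%). Of the 976 genes higher – dox, 372 were also higher + dox (38.1%, or 45.3% of the 821) and 19 were lower. Of the 957 genes lower – dox, 394 were also lower (41.2%, or 46.4% of the 850) and 18 were higher. Over the 12776 genes 5.61% were higher and 5.78% lower + dox. The 4 columns come from different samples. For the RNA-seq samples, whether the 2 re-seeded columns of each time share their cells of origin is not stated separately in the sources used here. The low values differed in the same direction in both pairs. Their 5th percentile, relative to the 24 h cells – dox, was 0.807 in the 24 h cells + dox and 2.31 in the 48 h cells + dox.

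The median log2 ratio + dox was 0.91 for the 976 genes and -0.90 for the 957. The naive list differed less + dox. Of its 14 genes lower – dox 2 were lower + dox, Klf2 and Pecam1, and the list had a median log2 ratio of -0.62 + dox and -1.44 – dox. Esrrb was at 66.5 and 56.2 FPKM + dox, against 33.2 and 8.31 FPKM – dox, and Zfp42 at 81.8 and 62.9 FPKM against 62.9 and 18.1 FPKM. Klf4 and Tfcp2l1 were at 14.2 and 14.6 FPKM and 12.2 and 31.5 FPKM + dox. The interaction of dox and time was not tested.

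**Figure D5:**
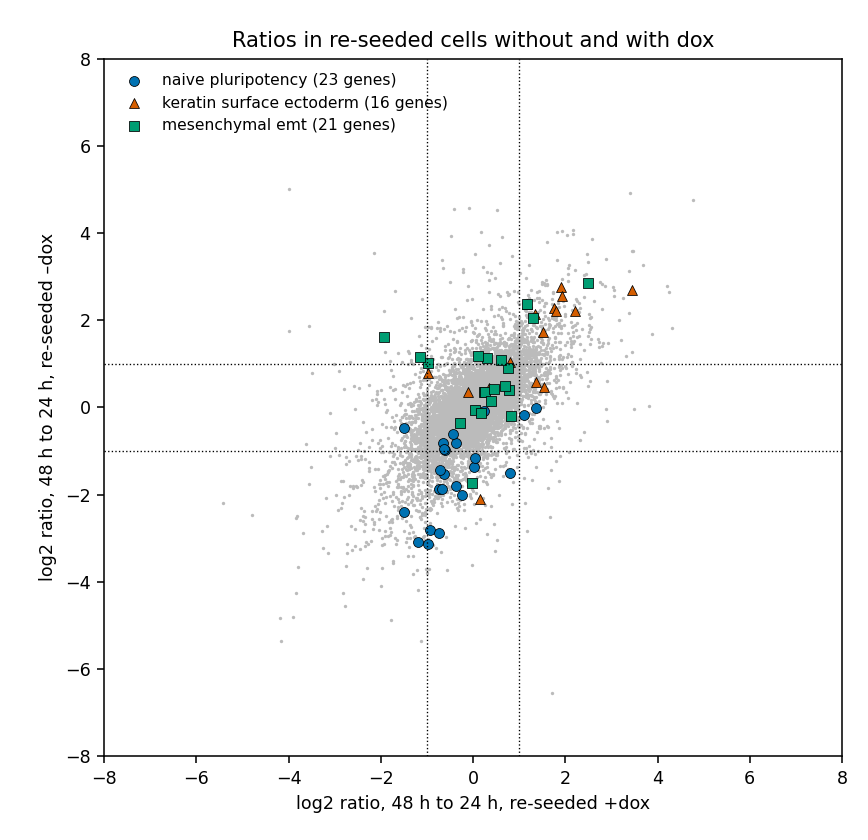
Log2 ratio of 48 h to 24 h in cells re-seeded + dox (x axis) and – dox (y axis) for 12693 genes (grey), with the naive pluripotency, keratin and mesenchymal lists marked. The dotted lines mark 2-fold, and 83 genes beyond a log2 ratio of 8 or without a ratio are not drawn. Of the 16 keratin genes 9 lie above 2-fold on both axes, and of the 23 naive genes 14 lie below 2-fold on the y axis, 2 of them also on the x axis.

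The cells re-seeded – dox after 0 h and 96 h place these genes in the longer course. In that pair 2916 genes were higher after 96 h (21.5% of 13545) and 2936 lower (21.7%). Of the 976 higher genes, 661 were at least 2-fold higher after 96 h than after 0 h (67.7%) and 32 were lower. Of the 957 lower genes, 675 were lower after 96 h (70.5%) and 40 were higher. Over all 12776 genes 18.9% were higher and 19.1% lower in that pair. The low values differed in the same direction in this pair too. Their 5th percentile, relative to the 24 h cells – dox, was 0.736 after 0 h and 2.12 after 96 h. The part of depth in this overlap was not tested. The median level of the 976 genes was 2.32 FPKM after 0 h, 2.73 after 24 h, 7.95 after 48 h and 10.99 FPKM after 96 h. The median level of the 957 was 5.56 FPKM after 0 h, 3.78 after 24 h, 1.14 after 48 h and 0.897 FPKM after 96 h. The step between 24 and 48 h in these medians is fixed by how the genes were chosen.

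Single genes followed different courses. Krt18 was at 73.03, 215, 1268 and 2071 FPKM in cells re-seeded after 0, 24, 48 and 96 h. Pou5f1 was at 359.6, 213, 72.6 and 2.63 FPKM, and Nanog at 120.3, 50.1, 32.9 and 2.13 FPKM. Fgf5 was at 0.287, 3.59, 17.2 and 0.346 FPKM, and T at 0.191, 0.907, 5.9 and 0.185 FPKM, so that both had their highest value of the 4 in the 48 h cells. Lefty1 had its highest in the 24 h cells, with 25.2, 306, 96.2 and 1.32 FPKM. Efemp1 was at 0.213, 5.53, 45.95 and 4.12 FPKM.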

How the data were processed

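RNA-seq was measured in 15 conditions with 2 replicates each. Per the study's methods, the authors mapped reads to mm10 with TopHat2 2.0.14 and quantified transcripts of Gencode M4 with Cuffquant and Cuffdiff of Cufflinks 2.2.1. The deposited values are FPKM, with both replicates of a condition combined into 1 value by the authors (the name of the table says RPKM). How Cuffdiff normalized the libraries, and whether counting used strand, are not given in the sources used here. Read depth is unknown and no interval was formed. The deposited columns of the authors' own calls (induced, repressed or unresponsive genes and dynamic groups) were not used.

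Plain ratios of the 48 h to the 24 h column were formed for genes with at least 1 FPKM in either, and 2-fold was called, with Python 3.11.15, numpy 2.4.6, pandas 2.3.3 and matplotlib 3.10.9. No test was possible with 1 value per condition. The genes named were the 15 with the largest ratios in each direction among those at 10 FPKM or more, the 8 with the largest differences in FPKM in each direction among 2-fold genes, the members of 41 gene lists, the OSKM genes and Nanog, and genes next to the limits. The members and lists were chosen with earlier results of these data known. Of 867 list genes, 81 stood in more than 1 list. Gene positions were taken from the mm10 annotation Gencode M21, where 94.9% of the symbols had a match. Promoters are from RefSeq on GRCm38.p6 and matched 9408 of the tested genes. Symbols turned into dates in the deposited table are given as listed. Alternatives were other minimum levels, 1 FPKM added, 2 scalings and other folds. The results for some named genes are not reported here.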

Additional observations from a re-analysis of the deposited data

Results flagged for a closer look

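In 6 of the named genes the 48 h and 24 h cells differed at least 2-fold in opposite directions with and without dox. The log2 ratio of 48 h to 24 h was 1.65 – dox and -1.18 + dox for Axin2, the feedback inhibitor of Wnt signalling. It was -6.56 – dox and 1.70 + dox for Crygn, a crystallin gene. The first rests on 0.11 FPKM in the 48 h cells – dox, the lowest value of the gene in any condition. Igtp, an interferon-induced GTPase of low level that stood next to the 2-fold limit, had 1.00 – dox and -1.40 + dox. Gap43, a growth cone protein of neurons that was also close to that limit, had 1.00 – dox and -1.055 + dox. Tek, the angiopoietin receptor, had -1.03 – dox and 2.07 + dox. Vim, the intermediate filament of mesenchymal cells, had 1.15 – dox and -1.15 + dox. The difference between – dox and + dox was not tested, since each ratio rests on 1 pooled value per condition.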

How the results depend on the processing

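No paired analysis was possible because the columns combine the replicates, and for the same reason no replicate could be left out. The 976 higher and 957 lower genes became 598 and 393 with a minimum of 5 FPKM, 2249 and 4492 with no minimum, 622 and 510 with 1 FPKM added, 579 and 1438 with columns scaled to the same sum, 2169 and 1901 at 1.5-fold and 360 and 443 at 3-fold. With 1 FPKM in both columns they were 697 and 509. The share of higher genes among the calls was 50.5% as reported, 60.3% with 5 FPKM, 57.8% with 1 FPKM in both, 33.4% with no minimum and 28.7% with the same sum. Scaling to the same sum shifted the median log2 ratio of all genes from 0.01 to -0.26, and scaling by median ratios gave 955 and 971 calls.

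Of the genes higher at 48 h of withdrawal, 12.9% were higher after re-seeding, against 16.2% with no minimum, 9.82% with 1 FPKM added, 7.92% with the same sum, 23.2% at 1.5-fold and 5.16% at 3-fold. For the lower genes the share was 19.2%, against 16.5% with 1 FPKM in both, 38% with no minimum, 22.9% with the same sum, 24.5% at 1.5-fold and 12.1% at 3-fold. Of the genes higher – dox, 38.1% were higher + dox, against 34.7% with no minimum, 33.2% with the same sum, 47.2% at 1.5-fold and 29.4% at 3-fold. For the lower genes this was 41.2%, against 35.4% with 1 FPKM in both, 32.7% with 1 FPKM added, 46.9% with the same sum, 51.8% at 1.5-fold and 30% at 3-fold. The cause of these shifts was not tested beyond what each setting does by construction.

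List medians changed sign for 3 lists with 5 FPKM, 4 with 1 FPKM in both, 1 with no minimum, 2 with 1 FPKM added and 4 with the same sum, the fibroblast list in 3 of these settings. Read depth is unknown, and the low values of the columns differed, which bears on genes near 1 FPKM.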
